A study of Mus musculus with 32 samples.

Results

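The kidney cortex of 4 male Alport mice given nicotinamide riboside (NR, a precursor of NAD+) was compared with that of 4 male control mice given vehicle, 8 of the 32 bulk RNA-Seq libraries of the study. The 8 libraries were taken by sex, genotype and treatment in their labels. All mice were 25 weeks old and carried the Col4a3tm1Dec allele on the C57BL/6J background. Alport mice were Col4a3-/- and controls were Col4a3+/-, so the controls also carry 1 mutant allele. The diet held NR at 0.5% by weight, starting at 10 weeks. The 2 groups differ in genotype and in treatment, which cannot be told apart in this comparison. Vehicle-treated Alport males and NR-treated control males, 4 mice each, are given beside it. The question was which genes remained away from the healthy level in treated Alport kidneys, and which passed it on the other side.

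Alport syndrome is an inherited disease of the type IV collagen of the glomerular basement membrane. Loss of the α3 chain removes the α3α4α5 network, and protein leak, tubular injury, inflammation and interstitial fibrosis follow. The proximal tubule, which makes up most of the cortex, burns fatty acids in mitochondria and peroxisomes under the control of the nuclear receptor PPARα. NR enters the NAD+ salvage pathway through the NR kinases Nmrk1 and Nmrk2.

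Treated Alport kidneys were still far from healthy. Of 15077 genes tested, 3199 were called (21.2%; edgeR quasi-likelihood test, Benjamini-Hochberg adjusted p under 0.05), with 2173 higher (14.4%) and 1026 lower (6.81%) in NR-treated Alport mice. Of these, 1470 higher and 239 lower genes differed by at least 2-fold. The 4 and 4 libraries did not overlap in 4922 genes (32.6%). In vehicle-treated Alport males, 7790 of 15286 genes were called against the same controls (51%), and in NR-treated control males 666 of 14696 (4.53%). The comparisons with vehicle-treated controls share those 4 libraries, so their values are set side by side and are not independent. Between NR-treated and vehicle-treated Alport males, edgeR called 0 of 15500 genes (0%), 785 passed 0.05 before adjustment, and adjusted p-values began at 0.252. DESeq2 called 62 genes there. Without NR-treated Alport replicate 1, edgeR called 380 of 15662 genes, 289 lower and 91 higher in NR-treated mice. This was the highest count of the fits without 1 library, which ran from 0 to 380, and only this fit is broken down here. The mouse left out had the highest matrix, macrophage and tubule injury levels of its group. Lower values of such genes therefore follow in part from leaving it out. Of the 289, 278 were called higher in vehicle-treated Alport mice than in control. The 380 held 15 of 25 interstitial matrix, 9 of 23 macrophage and 8 of 25 cell cycle genes, all lower in NR-treated mice, beside 289 of all 15662. They also held 11 of 26 cholesterol synthesis, 9 of 26 PPAR target and 6 of 31 NRF2 target genes, all higher, beside 91 of all 15662. Of 26 mitochondrial fatty acid oxidation genes, 2 were higher. Of 25 proximal tubule and 24 citric acid cycle genes, 0 were called.

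The groups were unequally tight. The median SD of a gene's log2 CPM (library-scaled counts) was 0.324 in NR-treated Alport mice, 0.155 in vehicle-treated controls and 0.170 in vehicle-treated Alport mice. Replicate 1 of the NR-treated Alport mice had the highest matrix, macrophage and tubule injury levels of its group. Replicate 3 had the highest levels of NRF2 targets and serine synthesis genes and the lowest levels of proximal tubule and male-biased genes. Replicates 2 and 4 resembled each other, as their counts gave a chi-square of 22.9 for each degree of freedom, against 110 to 161 for the other pairs. Leaving out both replicates 1 and 3, a choice made after seeing the data, gave 3105 called genes, of which 2434 were among the 3199. Leaving out any 1 control gave 1446 to 1926. Of 85 called genes named by rule, 55 were called in all 8 fits that left out 1 library. Such genes are described below as held in every fit. Counts of called genes in a list also moved with single libraries. Counts without the libraries that moved them by over 1.5 times are given with most lists. Some counts of 3 or fewer genes moved as much and are given alone, such as the 3 higher NAD genes (2 to 4 without 1 library).

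Total counts of the 8 libraries were 18588229 to 27433134. Cortex markers were abundant in all 8, with Slc34a1 at 1080 to 8293 CPM and Nphs1 at 27.1 to 65.6 CPM. The adipocyte markers Adipoq, Lep and Ucp1 were at 0 to 0.115 CPM, and the adrenal markers Cyp11b1 and Cyp11b2 at 0 to 0.342 CPM. In bulk tissue, more cells of a type and more RNA per cell cannot be told apart.

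The targeted gene followed the labels of the 2 groups compared. Col4a3, the α3 chain, was at 67.6, 58.6, 56.0 and 61.7 CPM in the NR-treated Alport mice and at 201, 197, 181 and 151 CPM in controls. The groups did not overlap, and the log2 fold change was −1.52 ± 0.13 (SE; adjusted p = 0.00106), beside −1.40 in vehicle-treated Alport mice. Counts per gene do not show which exons the remaining reads cover. Col4a4, the neighbouring α4 chain gene, was at 151 to 191 CPM against 218 to 305 CPM in controls (log2 fold change −0.61, adjusted p = 0.0189), a call that was lost without control replicate 1 or 2 (adjusted p = 0.0631 and 0.0625). Healthy mice given NR had 59.3, 94.1, 75.2 and 160 CPM of Col4a3, a log2 fold change of −0.91 that missed the threshold (adjusted p = 0.0675). Of these, 59.3 CPM lay within the NR-treated Alport range, and 75.2 CPM within the 54.6 to 83.2 CPM of vehicle-treated Alport mice. Among NR-treated males the level of Col4a3 thus did not separate the genotypes.

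**Figure D1:**
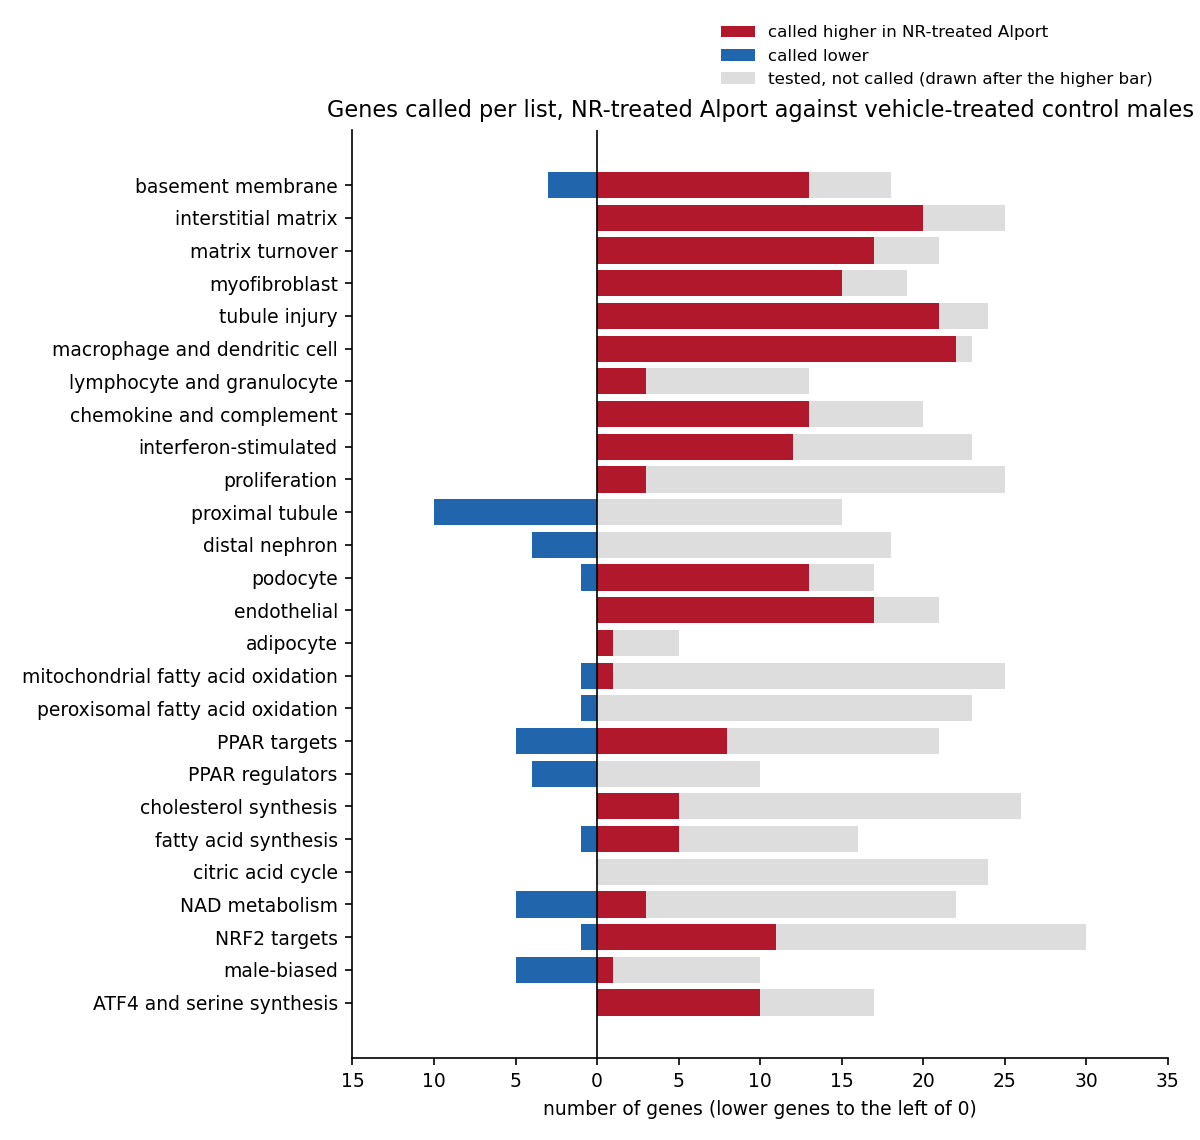
Number of genes of each of 26 lists called higher (red, right of 0) or lower (blue, left of 0) in NR-treated Alport than in vehicle-treated control males, with tested genes that were not called in grey. Matrix, injury and macrophage lists lie on the right, with 22 of 23 macrophage and dendritic cell genes called higher, and proximal tubule genes on the left, with 10 of 25 called lower.

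Matrix genes remained high. Of 25 interstitial matrix genes, 20 were called higher and 0 lower, with a median log2 fold change of 2.65, against 0.02 over all genes tested. The same list had a median of 2.87 in vehicle-treated Alport mice and 0.63 in NR-treated controls. Of 21 matrix proteases, inhibitors and crosslinkers, 17 were called higher (median 2.54), and of 19 fibroblast and myofibroblast genes tested, 15 (median 1.82; 10 without control replicate 1 or 4, up to 16 without other single libraries). Without replicates 1 and 3 these medians were 1.88, 1.66 and 1.37, with 21, 17 and 15 genes called higher.

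Col1a1, a chain of fibrillar type I collagen, was at 444 CPM in replicate 1 and at 49.9, 35.9 and 126 CPM in the other treated Alport mice. Controls had 5.92 to 10.1 CPM, so even the lowest treated mouse lay above the highest control. The log2 fold change was 4.36 ± 0.78 (adjusted p = 0.00697), beside 5.05 in vehicle-treated Alport mice. Dcn, which encodes the collagen-binding proteoglycan decorin, was at 88.1, 40.8, 71.7 and 43.2 CPM against 8.85 to 12.9 CPM (log2 fold change 2.65 ± 0.27). Here replicates 1 and 3 were both high, unlike for Col1a1, where replicate 3 was the lowest. Loxl1, a collagen and elastin crosslinker, had a log2 fold change of 2.54, Timp1, an inhibitor of matrix proteases, of 6.51, and Sparc, a matrix glycoprotein, of 2.33. All 5 genes held in every fit. Fn1, fibronectin, reached 334 CPM in replicate 1 and 29.7 to 97.5 CPM in the others, against 14.7 to 22.2 CPM in controls. Its call (log2 fold change 2.83, adjusted p = 0.0173) was lost without control replicate 1, 2 or 4 (adjusted p = 0.0573, 0.0571 and 0.0506).

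Basement membrane genes divided by chain. Of 21 genes, 13 were called higher and 3 lower (median 0.99), the lower ones being Col4a3, Col4a4 and Lama3. The lower count was 1 without control replicate 1 or 2 and up to 4 without other single libraries. The α1 and α2 chains of type IV collagen, which form the network of the fetal glomerulus and of most basement membranes, were higher with log2 fold changes of 1.60 (Col4a1) and 1.62 (Col4a2). Col4a5, the partner of the missing α3 chain, had a log2 fold change of −0.05 ± 0.21 (adjusted p = 0.893). Col18a1, a collagen of vascular and epithelial basement membranes, was at 560 CPM in replicate 1 and 285 to 316 CPM in the other treated mice, against 118 to 148 CPM in controls (log2 fold change 1.52 ± 0.22).

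Tubule injury markers remained high. Of 24, 21 were called higher (median log2 fold change 2.96, beside 2.53 in vehicle-treated Alport mice and 1.21 in NR-treated controls). Havcr1, the injury receptor KIM-1 of the proximal tubule, was at 119, 93.1, 177 and 62.3 CPM in treated Alport mice and at 2.71, 3.08, 1.38 and 0.904 CPM in controls. Its log2 fold change was 5.85 ± 0.46 (adjusted p = 0.000723). Lcn2, the iron-siderophore carrier lipocalin-2, was at 137, 42.5, 128 and 35.6 CPM against 0.513 to 1.12 CPM (log2 fold change 6.89 ± 0.59). Replicates 1 and 3 were well above replicates 2 and 4, and all 4 lay above the controls. Krt20, a keratin of injured epithelium, had a log2 fold change of 6.29, and Vcam1, an adhesion molecule of injured tubule and endothelium, of 4.13. Healthy NR-treated mice were also above the vehicle-treated ones in Lcn2, with 25.9, 9.83, 7.75 and 1.28 CPM (log2 fold change 3.9, adjusted p = 0.0253). Their Havcr1 was at 3.11 to 21.8 CPM, with a log2 fold change of 2.38 that missed the threshold (adjusted p = 0.0514).

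Immune genes followed. Of 23 macrophage and dendritic cell markers, 22 were called higher (median 2.77, beside 3.31 in vehicle-treated Alport mice). In NR-treated controls 4 of them were called higher (median 0.76). The summed level of the list was 1198 to 4097 CPM in treated Alport mice and 345 to 396 CPM in controls. Cd74, the chaperone of MHC class II, was at 1112 CPM in replicate 1 and at 461, 464 and 469 CPM in the others, against 97.4 to 108 CPM in controls (log2 fold change 2.67 ± 0.30). C3, the central complement component, was at 2429, 939, 812 and 717 CPM against 21.2 to 26.2 CPM (log2 fold change 5.79 ± 0.45, adjusted p = 0.000723). NR-treated controls had 286, 102, 373 and 64.3 CPM of C3, all above the vehicle-treated controls. Of the chemokine and complement genes, 7 were called higher and 1 lower in NR-treated controls (median 0.71). Ctss, a lysosomal protease of antigen-presenting cells, had a log2 fold change of 3.57, and C7, of the membrane attack complex, of 3.85. Of 20 chemokine and complement genes tested, 13 were called higher, and of 23 interferon-stimulated genes, 12, with 7 without control replicate 1 or 3 and 15 without NR-treated replicate 2 or 3. Of 13 lymphocyte and granulocyte markers tested, 3 were called higher, 6 without NR-treated replicate 3 and 0 without control replicate 1, 2 or 3. Cd3e, a defining T cell marker, was at 0.334 to 1.38 CPM in treated Alport mice and at 0 to 0.585 CPM in controls.

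**Figure D2:**
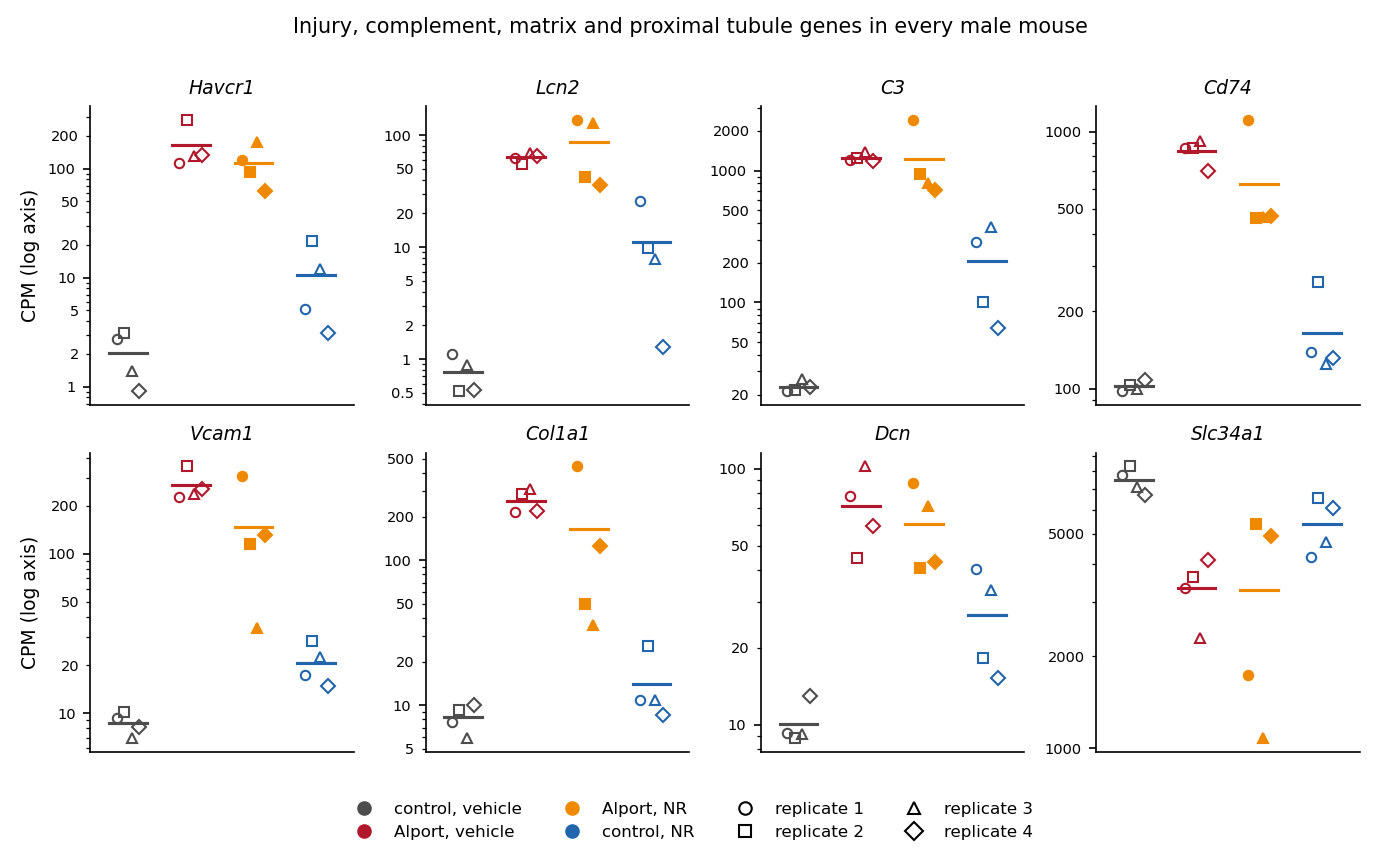
CPM on a log axis of 8 genes in each male mouse, in the 4 groups control vehicle, Alport vehicle, Alport NR and control NR from left to right, with bars at the group mean and symbols for the replicate number. Every NR-treated Alport mouse lies above every vehicle-treated control in the first 7 genes, and below every one in Slc34a1, where replicates 1 and 3 are at 1730 and 1080 CPM.

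Cell cycle genes gave fewer calls. Of 25, 3 were called higher in treated Alport mice, near the 14.4% of all genes tested, with a median log2 fold change of 0.79. In vehicle-treated Alport mice 22 were called higher (median 1.62). That comparison called 51% of all genes, and its Alport mice were less spread (median SD 0.170 against 0.324), so the numbers of calls are not like for like. The 3 became 0 without control replicate 1 or 2 and 5 without NR-treated replicate 3. The mean log2 CPM of the list relative to the control mean was 1.53 in replicate 1 and 0.37, −0.06 and 0.42 in replicates 2, 3 and 4. Bub1b, a spindle checkpoint kinase, was at 6.95 CPM in replicate 1 and at 2.43 to 4.19 CPM in the other treated mice, against 0.903 to 1.87 CPM in controls. Its call (log2 fold change 1.57, adjusted p = 0.0192) was lost without control replicate 1 or 2 (adjusted p = 0.0593 and 0.0624).

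Proximal tubule genes remained low. Of 25, 0 were called higher and 10 lower (median −0.92, beside −1.06 with all 25 called lower in vehicle-treated Alport mice). The fold changes of all 25 were negative. The number called lower was 4 without NR-treated replicate 1, 7 without replicate 3, 15 without replicate 4 and 2 to 4 without 1 control. Slc9a3, the apical sodium-hydrogen exchanger, was at 23.3, 28.0, 31.1 and 48.8 CPM against 67.3 to 81.6 CPM in controls (log2 fold change −1.11 ± 0.21, adjusted p = 0.00878). This gene held in every fit. Slc34a1, the main phosphate cotransporter, was at 1730, 5367, 1080 and 4922 CPM against 6673 to 8293 CPM. The groups did not overlap, but with this spread the log2 fold change of −1.12 ± 0.50 missed the threshold (adjusted p = 0.133). Without replicates 1 and 3 it was −0.48 (adjusted p = 0.0163), and the list then had 18 genes called lower and a median of −0.46. The list's summed level was 8408 to 27460 CPM in treated Alport mice and 31150 to 34950 CPM in controls. Lrp2, the endocytic receptor megalin, was at 665 to 1873 CPM against 2477 to 2778 CPM. Its call (log2 fold change −1.09, adjusted p = 0.0493) was kept in 2 of the 8 fits without 1 library, with an adjusted p of up to 0.110.

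Of 22 distal nephron genes, 4 were called lower, among them Slc12a3, the thiazide-sensitive cotransporter, at 349 to 735 CPM against 1098 to 1458 CPM (log2 fold change −1.04, lost without control replicate 1 or 2 with adjusted p = 0.0549 and 0.0618). The 4 became 1 without any 1 control or without NR-treated replicate 3, 2 without replicate 1, and 5 without replicates 1 and 3 together. Over all genes tested, 6.81% were called lower. Of 18 podocyte genes, 13 were called higher and 1 lower (median 1.02). Nes, the filament protein nestin of podocytes, was at 143, 107, 97.2 and 113 CPM against 28.6 to 35.0 CPM, a log2 fold change of 1.94 ± 0.14 (adjusted p = 0.000721). The lower gene was Vegfa, a growth factor that podocytes and tubule cells make (log2 fold change −0.73). Of 21 endothelial genes, 17 were called higher (median 0.74), beside 13 called higher in NR-treated controls (median 0.61). Eng, an endothelial TGF-β coreceptor, was at 178, 140, 144 and 145 CPM in treated Alport mice, 78.5 to 86.9 CPM in vehicle-treated controls and 124 to 132 CPM in NR-treated controls. Fabp4, which capillary endothelium and adipocytes make, was the 1 gene called higher of 5 adipocyte genes tested (log2 fold change 0.84).

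**Figure D3:**
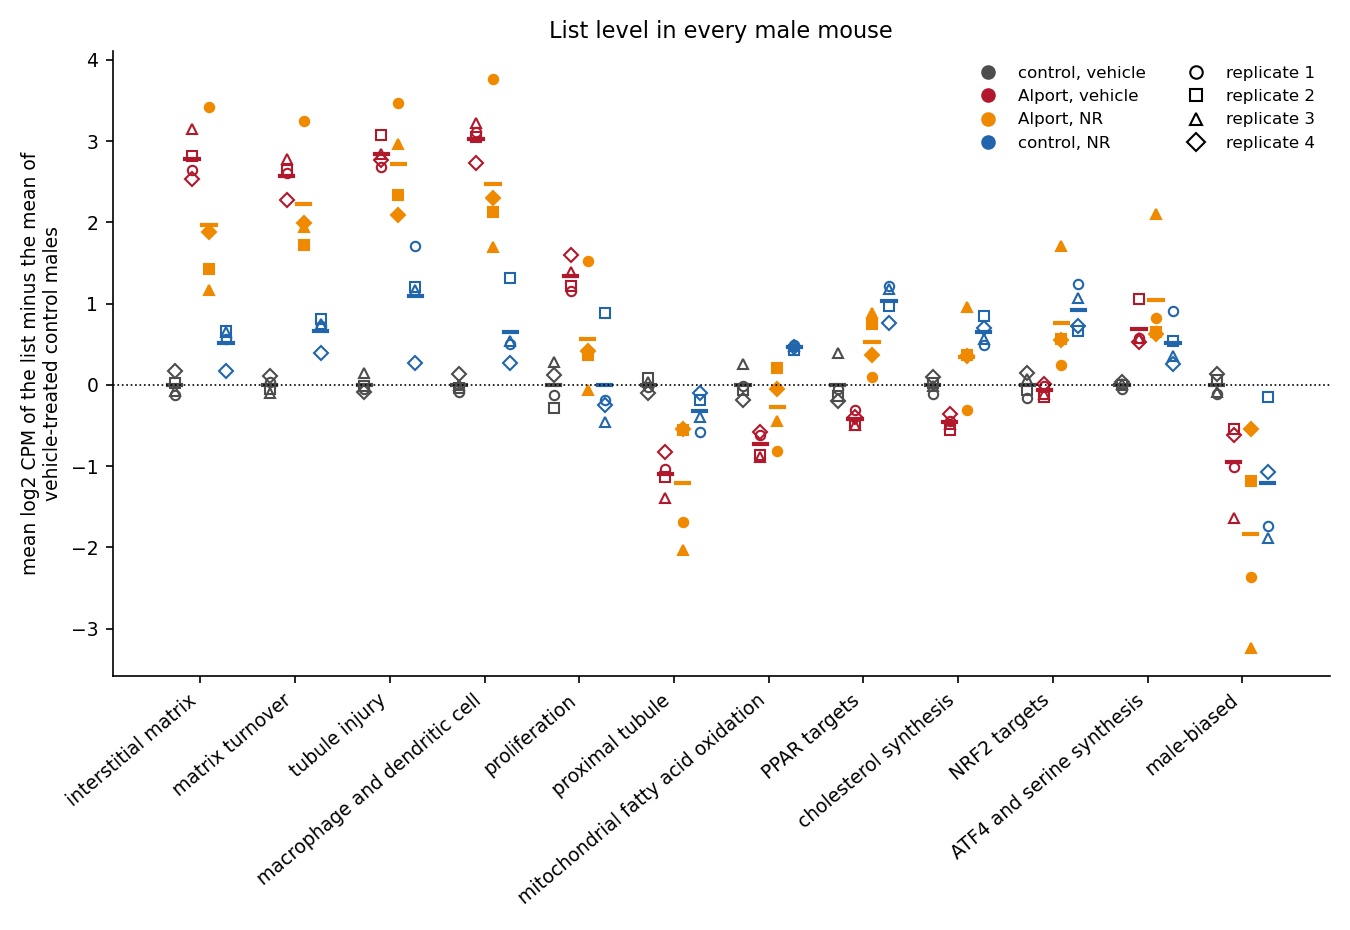
Mean log2 CPM of 12 gene lists in each male mouse, minus the mean of the vehicle-treated controls (dotted line at 0), by group and replicate, with bars at group means. NR-treated Alport mice (filled orange) span 1.17 to 3.42 for interstitial matrix and −2.03 to −0.54 for proximal tubule genes, and replicate 3 is the highest for NRF2 targets at 1.71.

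Few fatty acid oxidation genes were called. Of 26 genes of the carnitine shuttle and mitochondrial β-oxidation, 1 was called higher and 1 lower in treated Alport mice (median −0.21), whereas 24 were called lower in vehicle-treated Alport mice (median −0.62). The lower count was 0 without control replicate 1, 2 or 3 and 4 without NR-treated replicate 2. A gene that was not called is not shown to equal control. Acadm, the medium-chain acyl-CoA dehydrogenase, was at 309, 737, 408 and 796 CPM against 705 to 972 CPM in controls. Replicates 2 and 4 lay within the control range and replicates 1 and 3 below it, and the log2 fold change was −0.44 ± 0.30 (adjusted p = 0.322). Cpt1a, the carnitine palmitoyltransferase that admits long-chain fatty acids to mitochondria, was at 390, 560, 369 and 466 CPM against 666 to 866 CPM. It stayed lower (log2 fold change −0.73 ± 0.18, adjusted p = 0.0229), a call lost without control replicate 1, 2 or 3 (adjusted p = 0.0672, 0.0738 and 0.0548). The list level relative to control was −0.81, 0.21, −0.44 and −0.04 in treated Alport replicates 1 to 4, so that replicate 1 lay within the −0.88 to −0.57 of the vehicle-treated Alport mice.

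Of 24 peroxisomal genes, 0 were called higher and 1 lower (median −0.25, beside −0.68 and 22 called lower in vehicle-treated Alport mice). The lower count rose to 5 when treated replicate 2 was left out, and was 0 without treated replicate 1 or without control replicate 1, 2 or 4. Ehhadh, the bifunctional enzyme of peroxisomal β-oxidation, was at 538, 1454, 1420 and 1135 CPM in treated Alport mice and at 709 to 948 CPM in controls. Replicate 1 lay below all controls and the other 3 above them. The log2 fold change was 0.57 ± 0.30 (adjusted p = 0.193), and without replicate 1 it was 0.78 (adjusted p = 0.0179). Vehicle-treated Alport mice had 258 to 422 CPM. Of 24 citric acid cycle genes, 0 passed the threshold in either direction (median −0.48, beside −0.65 with 23 called lower in vehicle-treated Alport mice). Without NR-treated replicate 2 or 4 there were 6 called lower, and without replicates 1 and 3 together 6 lower and 1 higher. Their 2 smallest p-values belonged to Sucla2, a succinate-CoA ligase subunit (unadjusted p = 0.0120, adjusted p = 0.0537), and Dld, of the 2-oxoacid dehydrogenases (unadjusted p = 0.0159, adjusted p = 0.0638). DESeq2 called both.

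Some genes that PPARα controls outside β-oxidation were higher. Of 26 tested, 8 were called higher and 5 lower (median 0.34, beside −0.34 in vehicle-treated Alport mice and 0.83 in NR-treated controls). The lower count moved with single libraries, with 1 without NR-treated replicate 1, 2 without replicate 3 and 0 without any 1 control. Without replicates 1 and 3 together, 8 were called higher and 6 lower. The higher count was 3 without control replicate 1, 2 or 4 and up to 9 without other single libraries. Cyp4a14, a fatty acid omega-hydroxylase, was at 712, 2627, 3121 and 1322 CPM in treated Alport mice and at 25.1, 16.6, 119 and 24.4 CPM in vehicle-treated controls. The log2 fold change was 5.46 ± 0.80 (adjusted p = 0.00391), while vehicle-treated Alport mice had 16.5 to 81.5 CPM and NR-treated controls 1903 to 3397 CPM. Control replicate 3 was far above the other controls for Cyp4a14, Cyp4a10 and Acot1, and reads of the near-identical Cyp4a genes may be divided among them. Fabp1, a fatty acid binding protein that carries ligands to PPARα, was at 6.07, 4.75, 15.4 and 3.18 CPM against 0.106 to 0.493 CPM (log2 fold change 4.90 ± 0.63). Both genes held in every fit. The 5 lower genes, among them the fatty acid transporters Cd36 and Slc27a2, had log2 fold changes of −0.71 to −1.26.

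The promoter of Fabp1 is shown because a direct repeat of the half-site AGGTCA with a spacer of 1 base, the element that PPAR and its partner RXR bind, is well known in this gene. The sequence is from RefSeq (GRCm38.p6), chr6:71199629-71199928, plus strand, from 250 bases before the start to 50 after it. Capitals mark a match to the repeat on the minus strand with 1 mismatch allowed, at −67 to −55, and a match to TGACNNNGC, the core of the antioxidant response element that NRF2 binds, at −9 to −1. The promoter of Gsta1, a gene of large fold described below, is shown beside it (chr9:78230419-78230718, plus strand) and holds neither motif on either strand. That of Akr1b8, also picked by the rule, is not shown and holds neither motif.
Fabp1: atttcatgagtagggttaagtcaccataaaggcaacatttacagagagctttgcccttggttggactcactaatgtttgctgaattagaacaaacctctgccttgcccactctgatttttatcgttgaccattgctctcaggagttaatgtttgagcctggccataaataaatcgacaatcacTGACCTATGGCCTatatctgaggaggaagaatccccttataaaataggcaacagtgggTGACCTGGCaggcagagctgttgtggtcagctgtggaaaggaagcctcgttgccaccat
Gsta1: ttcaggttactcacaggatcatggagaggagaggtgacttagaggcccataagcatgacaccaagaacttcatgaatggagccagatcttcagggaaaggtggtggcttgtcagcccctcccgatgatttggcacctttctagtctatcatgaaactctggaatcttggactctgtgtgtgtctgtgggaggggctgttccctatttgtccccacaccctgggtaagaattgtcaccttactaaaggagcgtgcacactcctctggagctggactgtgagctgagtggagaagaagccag
Of all 32817 promoters of this length, 0.555% held the repeat and 12.4% the antioxidant core, both strands counted. Among the promoters of the higher PPAR targets, 1 of 6 held the repeat, that of Fabp1, where it was already known. Among those of the higher NRF2 targets 4 of 12, of 3 of 9 genes, held the core. Of 8 promoters of the genes named as past the healthy level and higher, 0 held either motif. These small sets were not tested against all promoters. A match is a description of the letters, and binding was not measured.

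None of the regulators passed the test as higher. Of 14 genes for PPARs, their partners and coactivators, 0 were called higher and 4 lower, 1 without control replicate 1 or 2 and 5 without NR-treated replicate 2. Ppara, which encodes PPARα, was at 39.2, 64.0, 49.2 and 67.0 CPM against 89.5 to 114 CPM in controls (log2 fold change −0.87 ± 0.18, adjusted p = 0.0113, held in every fit). Ppargc1a, the coactivator PGC-1α, was at 42.4 to 64.1 CPM against 72.4 to 90.4 CPM (log2 fold change −0.52), a call lost without control replicate 1, 2 or 3 (adjusted p = 0.0839, 0.0910 and 0.0778). Of 27 NAD genes tested, 3 were called higher and 5 lower, beside 14.4% and 6.81% of all genes tested. The lower count was 2 without control replicate 2 and 8 without NR-treated replicate 2 or 4. Nmrk1, the NR kinase, was at 50.9, 76.5, 54.4 and 75.3 CPM against 89.0 to 161 CPM (log2 fold change −0.97 ± 0.21, adjusted p = 0.0137). Bst1, an NAD+ glycohydrolase of stromal and myeloid cells, had a log2 fold change of 2.12, and Aox1, an oxidase of nicotinamide derivatives, of 3.02. Nampt, the rate-limiting enzyme of NAD+ salvage, was at 116, 203, 254 and 178 CPM against 244 to 257 CPM (log2 fold change −0.35, adjusted p = 0.252), beside −0.87 in vehicle-treated Alport mice.

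By the sign of the change in vehicle-treated Alport mice, few called genes passed the healthy level. Among the 3199 called genes, 2143 higher and 1018 lower ones lay on the same side of control as in vehicle-treated Alport mice, and 17 were not tested there. The other 21 lay on the opposite side, 14 higher and 7 lower. Of these 21, 2, Gsta4 and Reep6, were themselves called in vehicle-treated Alport mice, where both were lower than control (log2 fold change −0.38 and −0.51). For the remaining 19 the change in vehicle-treated Alport mice missed the threshold, and its sign alone placed them here. They are among 175 genes called in treated but not in vehicle-treated Alport mice. That the contrasts differ in these genes was not shown, since the direct edgeR comparison of treated and untreated Alport mice, with all 8 libraries, called 0. The rest of the 175 were placed on the Alport side by sign alone as well. Cyp4a14 and Ugt1a2 are not among the 21, although their vehicle-treated Alport and control ranges overlapped. Cyp4a14 was at 16.5 to 81.5 and 16.6 to 119 CPM there, and Ugt1a2 at 13.1 to 33.6 and 16.1 to 35.4 CPM. The count of 21 thus depends on this rule.

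Several of the genes past the healthy level handle lipids or conjugate foreign and oxidized compounds. Acot1, an acyl-CoA thioesterase, and Cyp4a10 had log2 fold changes of 1.49 and 1.63, and their calls were lost without 5 and 6 libraries. Pdk4, the kinase that shuts off pyruvate oxidation in fasting, was at 97.7, 64.2, 134 and 32.8 CPM against 22.0 to 41.0 CPM (log2 fold change 1.57, adjusted p = 0.0207), and was not called without control replicate 1, 2 or 4 (adjusted p = 0.0662, 0.0670 and 0.0589). Its groups overlapped through replicate 4. Creb3l3, a fasting-response transcription factor, was at 1.52 to 6.38 CPM against 0.761 to 1.22 CPM, and its call (log2 fold change 1.80, adjusted p = 0.0248) was lost without any 1 control.

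Ugt1a1, the enzyme that glucuronidates bilirubin, was at 42.2, 76.6, 55.6 and 26.3 CPM in treated Alport mice and at 15.4, 16, 15.4 and 8.66 CPM in controls. The groups did not overlap (log2 fold change 1.91 ± 0.32, adjusted p = 0.00561, held in every fit), and NR-treated controls had 32.1 to 59.7 CPM. The Ugt1a genes share their last exons, so reads may be divided among them. Cbr1, a carbonyl reductase, was at 171, 206, 564 and 170 CPM against 38.9 to 69.8 CPM (log2 fold change 2.41 ± 0.41, held in every fit) and at 339 to 700 CPM in NR-treated controls. Gstm1, a glutathione S-transferase, was at 382, 692, 820 and 664 CPM against 211 to 378 CPM, with replicate 1 just above the highest control. Its call (log2 fold change 1.16, adjusted p = 0.0202) was lost without control replicate 1 or 2 (adjusted p = 0.0658 and 0.0694). Gsta2 and Gsta4, of the same enzyme class, had log2 fold changes of 1.13 and 2.47. The Gsta4 value was 1.14 without replicate 3, which had 424 CPM against 51.3 to 75.6 CPM in the other treated mice, and its call was lost without any 1 control.

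**Figure D4:**
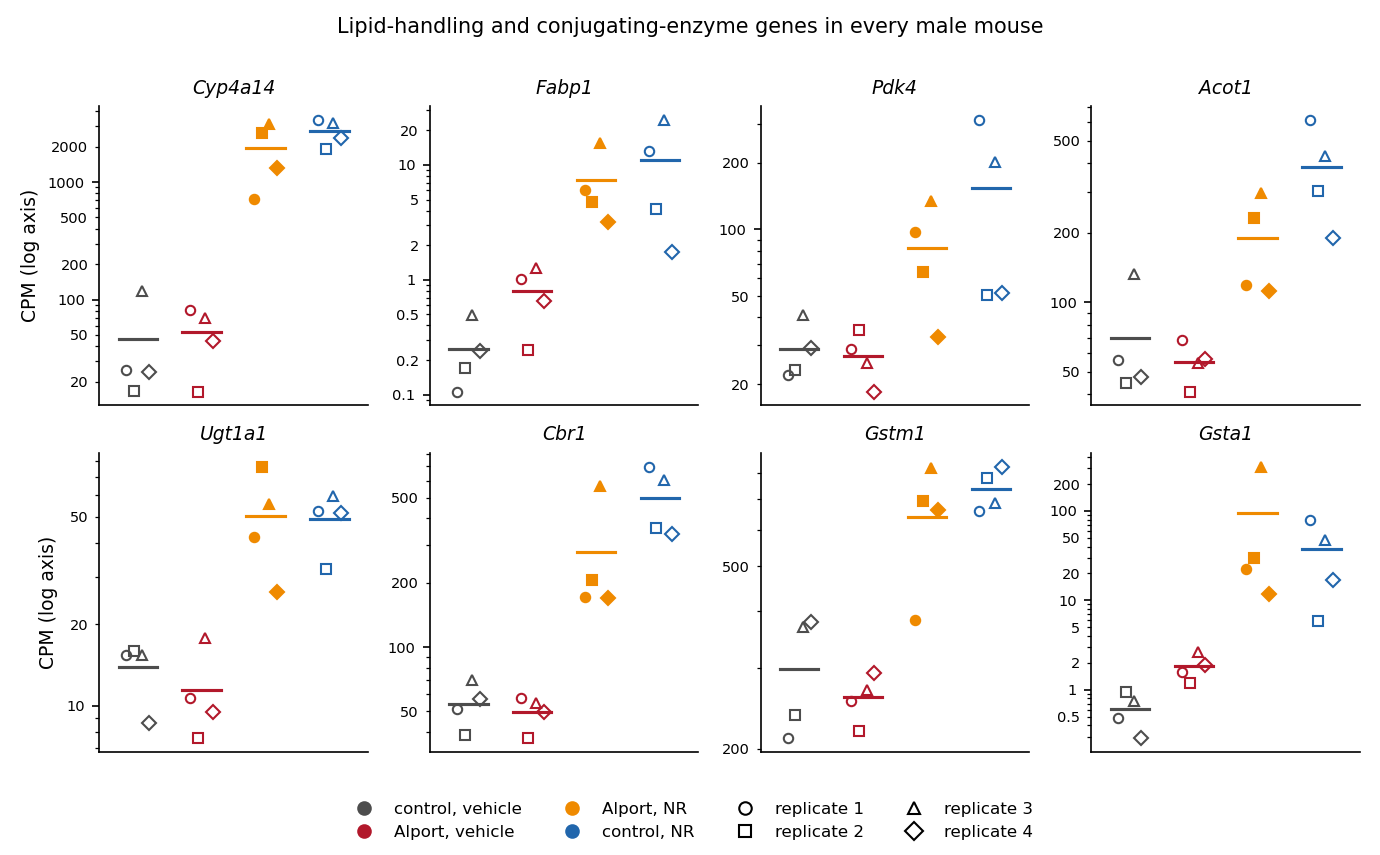
CPM on a log axis of 8 genes of lipid handling and conjugation in each male mouse, in the 4 groups control vehicle, Alport vehicle, Alport NR and control NR from left to right, with bars at the group mean. NR-treated mice of either genotype lie above vehicle-treated mice of either genotype in Cyp4a14, Ugt1a1, Cbr1, Gsta1 and Fabp1.

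Below the healthy level lay Ccl28, a mucosal chemokine, Ces1g, a carboxylesterase, and Gulo, the enzyme of vitamin C synthesis. Ccl28 was at 8.41, 6.72, 4.42 and 6.63 CPM against 12.5 to 25.9 CPM in controls and 6.87 to 75.5 CPM in vehicle-treated Alport mice, where 1 mouse was far above the rest. Its log2 fold change was −1.48 ± 0.26 (adjusted p = 0.00639), and it held in every fit. Gulo was at 0.154 to 0.582 CPM against 0.838 to 3.24 CPM, and both it and Ces1g lost their calls without most single libraries, with an adjusted p of up to 0.114 and 0.104.

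NRF2 targets, which conjugate and reduce reactive compounds, were raised in part. Of 31 tested, 11 were called higher and 1 lower (median 0.62, beside −0.08 with 7 called higher and 11 lower in vehicle-treated Alport mice and 0.55 in NR-treated controls). The higher count was 5 without control replicate 1 or 2 and up to 12 without other single libraries. Gsta1, another glutathione S-transferase, was at 22.3, 29.6, 314 and 11.8 CPM against 0.285 to 0.940 CPM (log2 fold change 7.30 ± 1.28, adjusted p = 0.00639). Replicate 3 set its size, and without it the log2 fold change was 5.15. limma-voom did not call it (adjusted p = 0.0804). Akr1b8, an aldo-keto reductase, was at 15.6, 5.79, 16.1 and 5.95 CPM against 0.986 to 2.14 CPM (log2 fold change 2.81), beside 3.15 in vehicle-treated Alport mice. Nqo1, the quinone reductase most used as an NRF2 readout, was at 78.8, 79.8, 298 and 114 CPM against 47.2 to 97.9 CPM, and its log2 fold change of 1.11 ± 0.44 missed the threshold (adjusted p = 0.101). The Gsta genes are close paralogs, so reads may be divided among them.

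Few sterol genes passed the test. Of 26 genes of cholesterol synthesis and uptake, 5 were called higher, beside 14.4% of all genes tested, and 0 lower (median 0.38, beside −0.37 in vehicle-treated Alport mice and 0.56 in NR-treated controls). The 5 became 1 without control replicate 1, 9 without NR-treated replicate 1 and 11 without replicates 1 and 3 together, when 1 was called lower. Sqle, the squalene epoxidase of the pathway, was at 81.9, 107, 177 and 109 CPM against 60.0 to 77.5 CPM in controls and 61.9 to 72.3 CPM in vehicle-treated Alport mice. All 4 treated mice lay above both, replicate 3 the highest. The log2 fold change was 0.87 ± 0.22 (adjusted p = 0.0230), a call lost without control replicate 1, 2 or 4 (adjusted p = 0.0725, 0.0742 and 0.0571). Of 17 fatty acid synthesis genes, 5 were called higher, 3 without any 1 control, and 1 lower. Scd1, the stearoyl-CoA desaturase, was at 259, 225, 241 and 328 CPM against 43.9 to 103 CPM (log2 fold change 1.93, beside 2.0 in vehicle-treated Alport mice). Fads1, a fatty acid desaturase, was at 113 to 141 CPM against 74.2 to 81.8 CPM (log2 fold change 0.78, beside 0.14).

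Of 17 genes of the ATF4 response and serine synthesis, 10 were called higher (median 1.72, beside 0.90 in vehicle-treated Alport mice), and 5 without control replicate 1, 2 or 3. Psat1, a serine synthesis enzyme, was at 55.6, 76.6, 106 and 57.3 CPM against 19.7 to 25.2 CPM (log2 fold change 1.77 ± 0.21), and Atf3, a stress-induced transcription factor, at 3.24 to 16.5 CPM against 0.266 to 0.904 CPM (log2 fold change 4.10). Both held in every fit. Without replicates 1 and 3 the list's median was 0.81, with 8 genes called higher.

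Outside the lists, the largest folds among genes above 5 CPM included Serpina3n, an acute-phase protease inhibitor, at 44.8, 7.88, 13.4 and 5.91 CPM against 0.0952 to 0.213 CPM (log2 fold change 7.08). Egr2, an immediate-early transcription factor, had a log2 fold change of 6.01 and Muc4, a membrane mucin, of 5.82, with controls at 0 to 0.197 CPM in both. On the lower side Fcamr, a receptor for IgA and IgM, was at 3.49, 8.17, 2.49 and 10.1 CPM against 28.6 to 54.2 CPM (log2 fold change −2.75). Anxa13, an epithelial annexin, was at 0.928 to 5.24 CPM against 14.1 to 27.6 CPM (log2 fold change −2.73), and Sec14l3, a lipid-binding protein, at 0.576 to 1.75 CPM against 5.90 to 9.57 CPM (log2 fold change −2.81). These 6 genes held in every fit. Dnase1, the secreted nuclease of tubule cells, was at 74.0, 357, 17.6 and 269 CPM against 1216 to 1849 CPM (log2 fold change −3.06), a call lost without control replicate 1 or 2 (adjusted p = 0.0554 and 0.0540).

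Some genes of the male-biased list were low, to an extent that differed between mice. Of 15, 5 were called lower and 1 higher (median −1.14, beside −0.82 in vehicle-treated Alport mice and −0.93 in NR-treated controls). The lower count was 3 when treated replicate 1 or 2 was left out, 8 when replicate 4 was, and 1 without any 1 control. Slco1a1, an androgen-dependent organic anion transporter, was at 1.15, 13.5, 0.594 and 49.2 CPM against 199 to 443 CPM (log2 fold change −4.28 ± 1.15). Its call (adjusted p = 0.0290) was lost without NR-treated replicate 2 (adjusted p = 0.0532) or any 1 control. Kap, the kidney androgen-regulated protein, was at 902, 3839, 154 and 6384 CPM against 10951 to 13301 CPM. All 4 treated mice were below all controls, replicate 3 by far the most, and the log2 fold change of −2.08 ± 0.87 missed the threshold (adjusted p = 0.116). Cyp4a12b was the gene called higher, at 12.6, 31.0, 55.2 and 27.2 CPM against 6.38 to 11.8 CPM (log2 fold change 1.75). NR-treated controls had 1430 to 9851 CPM of Kap and 3.75 to 120 CPM of Slco1a1, all below the vehicle-treated controls. Slc22a7, an organic anion transporter, was at 2.73, 4.92, 0.965 and 13.5 CPM against 53.5 to 96.4 CPM (log2 fold change −3.68 ± 0.64, adjusted p = 0.00642, held in every fit). It is in the list, yet control females had more of it, at 138 to 229 CPM, so it was not male-biased in these mice.

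**Figure D5:**
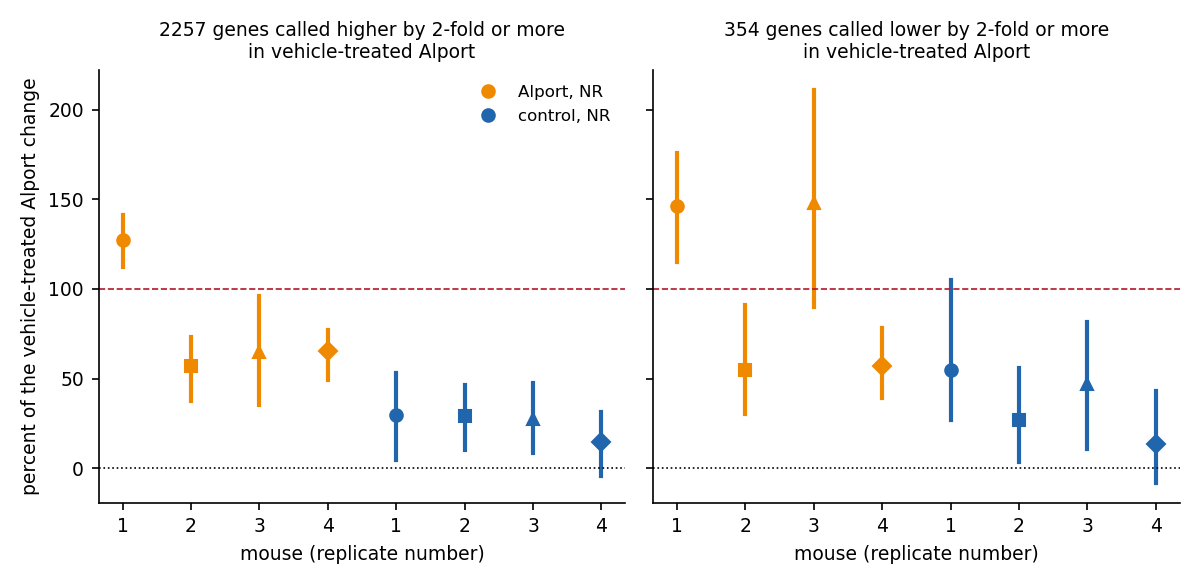
Each NR-treated male's distance from the vehicle-treated controls as a percent of the distance of vehicle-treated Alport mice (0, control; 100, vehicle-treated Alport), over genes called by 2-fold or more in vehicle-treated Alport. Points are medians over genes and lines run from the 25th to the 75th percentile, and NR-treated Alport replicate 1 is at 127% and 146%.

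Seen gene by gene, the distance kept differed between mice. Over 2257 genes called at least 2-fold higher in vehicle-treated Alport mice, the treated Alport mice stood at a median of 127%, 57.1%, 64.7% and 65.3% of that change. Over 354 genes called at least 2-fold lower, they stood at 146%, 54.7%, 148% and 56.8%. Replicate 1 was thus past the untreated Alport level in both directions and replicate 3 in the lower genes only. NR-treated controls stood at 14.4% to 29.6% and 13.7% to 54.9%. These percentages use genes chosen for their change in vehicle-treated Alport mice against the same controls, and are descriptions.

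Of the 2257 higher genes, 2039 were tested in treated Alport mice, 1459 were still called and 580 were not. Of the 580, 576 kept a positive fold change, and the 95% interval excluded a 2-fold difference in 14. Of the 354 lower genes, 353 were tested, 156 were still called and 197 were not, 14 with an interval below 2-fold. The median SE of these genes was 0.39 and 0.38 in the treated comparison, against 0.23 and 0.17 in the untreated one. Among the higher genes closest to control was Pla2g5, a secreted phospholipase, at 12.3, 4.34, 4.64 and 7.30 CPM against 5.23 to 7.89 CPM in controls and 13 to 16 CPM in vehicle-treated Alport mice. Replicate 1 was near the untreated Alport range and the other 3 near control. Among the lower ones was Tfrc, the transferrin receptor, at 40.4, 75.2, 85.0 and 93.3 CPM against 80.7 to 96.1 CPM (log2 fold change −0.16 ± 0.23) and 27.9 to 48.8 CPM in vehicle-treated Alport mice. Gldc, the glycine decarboxylase, was at 130, 390, 369 and 186 CPM against 272 to 311 CPM, so that its log2 fold change of −0.02 ± 0.32 averaged mice on both sides of control. The 12 genes of this kind named by rule were chosen for being near control, and their fold changes are no evidence of it.

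The same contrast in females gave 3615 called genes of 15381. A test of the difference between the sexes over the 16 libraries called 6 of 15920 genes (0.0377%; 1091 had an unadjusted p under 0.05), which are named here after their values were seen. Ugt1a2, a glucuronosyltransferase, was at 139, 460, 382 and 121 CPM in treated Alport males and 16.1 to 35.4 CPM in control males, but at 709 to 1122 CPM in treated Alport females and 2057 to 2382 CPM in control females. The difference in log2 fold change was 4.93 ± 0.54 (adjusted p = 0.00168). Abcc3, a conjugate exporter, moved the same way, at 12.6 to 32.0 CPM against 0.983 to 2.24 CPM in males and 17.1 to 45.2 CPM against 31.6 to 77.5 CPM in females. In both genes the control males were below the control females, and the treated Alport groups were closer together. The other 4 differed in log2 fold change, not all by a change in males. For Gbp3 it was 1.54 in males and −0.95 in females (difference 2.43), and for Col19a1 −3.09 and 1.07 (difference −4.22). Oat was at 135 to 145 CPM in treated Alport males and 137 to 162 CPM in control males, and at 212 to 238 and 404 to 464 CPM in females (difference 0.87). Timd2 had a log2 fold change of −0.22 in males and 1.83 in females (difference −2.11).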

How the data were processed

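Poly(A) RNA of kidney cortex was sequenced from 32 mice, 1 library a mouse. The deposited counts per gene symbol were made by the authors with BioJupies, on mm10 per the submitters' processing notes. The aligner version, annotation and strand setting are not given in the sources used here. The deposited log10 table, also from the authors, equals log10(CPM + 1) of the counts (largest difference 4.44e-16 over 1041408 values) and was not tested. Columns of no sample of the series numbered 0.

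Counts were filtered with filterByExpr (minimum count 10), scaled by TMM and tested with edgeR 4.0.16 (quasi-likelihood F test, two-sided) in R 4.3.3, with Benjamini-Hochberg adjustment over all genes tested and a threshold of 0.05. Each comparison was fitted on its own libraries. The SE of a log2 fold change is its size divided by the square root of F, and intervals are 95%. CPM of single mice were TMM-scaled over the 32 libraries. List levels are means of log2 CPM with a prior count of 2. DESeq2 1.42.0 and limma 3.58.1 (voom) served as alternatives. The scripts were tested on simulated data. Counting error only is covered by depth.

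Named genes were Col4a3 and Col4a4, the 2 tested genes of smallest p in each list, the 8 higher and 8 lower of largest fold with a mean of at least 5 CPM and no overlap, those past the healthy level by smallest p, 12 near control, and a short list of well-known genes. The members and the 26 gene lists were chosen with earlier results of these data known. No list was tested as a set. Promoters are from RefSeq tables (GRCm38.p6), and the Cyp4a14 promoter was not used here. Some genes picked by the rule are not reported here.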

Additional observations from a re-analysis of the deposited data

Results flagged for a closer look

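Of 264 groups of 4 mice examined for a mouse far from the other 3 of its group (Dixon's test at its 95% critical value), 28 had one. Chance gives about 1 in 20 such groups, and genes of 1 mouse are not independent.

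NR-treated Alport replicate 1 stood above its group in Col18a1 (559.69 CPM), Loxl1 (78.738), Ctss (172.95), Vim (221.62), Tgfbi (119.47), Cd74 (1111.8), C3 (2429.3), Tmem173 (27.18), Mcm3 (18.235), Eng (177.82), Egr2 (16.7), Cdca2 (2.6873), Ltk (1.4204) and Gbp3 (19.886), all in CPM. Its mean log2 CPM over the fibroblast and myofibroblast list was 5.561, against 4.367 to 4.388 in the others.

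Replicate 3 of that group stood above it in Gsta1 (314.22 CPM), Cbr1 (564.24), Gsta4 (423.79) and Nqo1 (298.41). Its mean log2 CPM over the ATF4 and serine synthesis list was 5.461, against 3.987 to 4.183. Replicate 2 stood above in Nr1h4 (188.59 CPM).

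Among vehicle-treated controls, replicate 3 stood above the rest in Cyp4a14 (118.65 CPM), Cyp4a10 (591.21) and Acot1 (132.45). Control replicate 4 stood above in Dcn (12.942 CPM) and Gulo (3.2356), and below in Ugt1a1 (8.66) and Eif4ebp3 (8.9455).

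The difference between the sexes in log2 fold change, male minus female, passed the edgeR test in 6 genes. It was 4.62 for Abcc3, −4.22 for Col19a1, 2.43 for Gbp3, 0.87 for Oat, −2.11 for Timd2 and 4.93 for Ugt1a2. Col19a1 fell in males (log2 fold change −3.09) and was at 0.225 to 0.973 CPM in all 8 females. Timd2 was at 52.2 to 97.3 CPM in the males and at 3.38 to 21.5 CPM in the females.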

How the results depend on the processing

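No called result named here turned its direction under any alternative run. The 3199 genes called against control became 5019 with all 16 males in the fit, 6819 with all 32 libraries and 1709 with a fold of at least 2. Of these, higher genes numbered 3373 with 32 libraries. Lower genes numbered 1918 with DESeq2, 1965 with 16 males, 3446 with 32 libraries and 239 at 2-fold. The share of calls that were higher was 67.9%, against 57.5% with DESeq2 and 49.5% with 32 libraries. Leaving out 1 library gave 1446 to 3970 calls, 1203 to 2372 higher and 243 to 1634 lower, fewest without control replicate 2 and most without NR-treated Alport replicate 4. It gave 1434 to 3898 called genes still on the Alport side of control, 3 to 26 called genes past the healthy level, higher, and 2 to 14 called genes past the healthy level, lower. Likewise 677 to 1416 genes of at least 2-fold in vehicle-treated Alport no longer called were counted. NR against vehicle in Alport mice gave 62 genes with DESeq2 and 0 to 380 without 1 library, 380 without replicate 1. The sex difference gave 72 genes with DESeq2, 10 with the replicate block and 4 to 12 without 1 library. The cause of these shifts was not tested. Same-numbered mice did not deviate together (correlations −0.0465, −0.104, −0.0894 and 0.0114), and differently numbered ones gave −0.0963 to 0.146. Pairing by number was not seen, but 4 mice a group cannot exclude it. The replicate block called 2346 genes, 2228 of them shared. With 4 mice a group and the spread of the treated group, small differences were not detectable.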
